A study of Saccharomyces cerevisiae BY4741 with 2 samples.

Results

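The genes described here are 10 genes of ammonium, glutamate and proline use in the budding yeast Saccharomyces cerevisiae. They were taken by systematic name from the sense-strand count table: GDH1 (YOR375C), GDH2 (YDL215C), GDH3 (YAL062W), GLN1 (YPR035W), GLT1 (YDL171C), MEP1 (YGR121C), MEP2 (YNL142W), MEP3 (YPR138C), PUT1 (YLR142W) and PUT2 (YHR037W). All 10 were among the 7134 rows of the table and among the 6124 rows that passed the filter on low counts. The question is how the RNA levels of these genes differed between a strain without DBP2, which encodes a DEAD-box RNA helicase, and wild type. Total RNA depleted of ribosomal RNA was sequenced with a strand-specific kit from cultures in rich medium with 2% glucose at 30 °C, in mid-log phase. The wild type was MATa with his3Δ1, leu2Δ0, met15Δ0 and ura3Δ0. The deletion strain was MATa with dbp2::KanMx, and its other markers are written as ura3Δ0, leu2Δ0, his3Δ0, TRP1, met- and lysΔ. Both strains therefore lack functional URA3, LEU2 and HIS3 by their labels, and they differ in methionine and lysine markers, so the deletion cannot be told apart from these differences. Each strain has 2 libraries, called here wild type 1 and 2 and deletion 2 and 3 after the columns of the table, and the sources do not say whether they came from separate cultures. The p-values rest on the spread between libraries of a strain, and that spread may be technical.

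Yeast builds all its nitrogen compounds from glutamate and glutamine. Ammonium enters through the Mep permeases and is joined to 2-oxoglutarate by NADP-dependent glutamate dehydrogenase, or enters glutamine through glutamine synthetase and is then passed on by glutamate synthase. Proline is a poor nitrogen source that is broken down to glutamate in the mitochondrion. When good nitrogen sources are present, the GATA-type activators Gln3 and Gat1 are held back, and genes for poor sources stay low, a state called nitrogen catabolite repression.

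The RNA of the proline oxidase gene PUT1 rose 4.18-fold and that of the ammonium permease gene MEP2 rose 2.51-fold in the deletion strain. The RNA of GDH1, the main NADP-dependent glutamate dehydrogenase, fell to 45.4% of its wild-type level, and that of GLN1, glutamine synthetase, fell to 64.9%. GDH2, GDH3, GLT1, MEP1, MEP3 and PUT2 did not pass the test. In all, 2 of the 10 genes were called higher and 2 lower at an adjusted p below 0.05 in edgeR's quasi-likelihood test. Across all 6124 features tested, 41.9% were called, 21.2% higher and 20.7% lower, so the share called among the 10 genes was close to that of the whole table. The median size of the log2 fold change was 0.35 for the 10 genes and 0.58 for all features. The CPM of the strains (counts divided by the TMM-scaled library size) did not overlap for 7 of the 10 genes, against 74.7% of all features.

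Upstream stretches of MEP2, PUT1 and GDH1 are shown because these genes were called under every alternative tried, and that of PUT2 because it is the partner of PUT1. Sequence and coordinates are from the RefSeq R64 genome, the build that the submitters' processing notes name, on the strand of each gene. Positions count back from the first base of the start codon, with -1 just before it. Capitals mark GATAAG or its reverse complement CTTATC, the core that GATA factors bind, in all 4 stretches. In PUT1 and PUT2 they also mark the outer triplets of CGGNNNNNNNNNNCCG, the spacing that the proline activator Put3 binds, and in GDH1 the Gcn4 core TGACTC. The MEP2 stretch lies at chrXIV:356983-357230 (plus strand, -470 to -223) and holds 7 GATAAG cores, of which neighbours share a G at 2 places. The PUT1 stretch lies at chrXII:424873-424991 (plus strand, -313 to -195) and holds 2 Put3 spacings and 1 GATAAG core. The PUT2 stretch lies at chrVIII:181783-181831 (plus strand, -194 to -146) and holds 1 of each. The GDH1 stretch lies at chrXV:1043456-1043539 (minus strand, -497 to -414) and holds 2 GATAAG cores and 1 Gcn4 core. Another GATAAG core of GDH1, at -579, lies upstream of this stretch and is not shown. The annotated genes YNL143C and YOR376W, each on the other strand, lie 266 bases upstream of MEP2 and 148 bases upstream of GDH1. Part of the MEP2 stretch and all of the GDH1 stretch therefore lie beyond these gaps.
MEP2: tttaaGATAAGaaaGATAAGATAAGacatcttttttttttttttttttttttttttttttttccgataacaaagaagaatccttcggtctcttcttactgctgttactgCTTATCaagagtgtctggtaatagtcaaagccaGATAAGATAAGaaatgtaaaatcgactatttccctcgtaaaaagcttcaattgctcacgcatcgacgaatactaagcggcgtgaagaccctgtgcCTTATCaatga
PUT1: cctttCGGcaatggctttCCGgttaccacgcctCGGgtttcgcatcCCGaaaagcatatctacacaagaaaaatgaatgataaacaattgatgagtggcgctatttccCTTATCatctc
PUT2: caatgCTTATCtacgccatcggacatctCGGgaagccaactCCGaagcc
GDH1: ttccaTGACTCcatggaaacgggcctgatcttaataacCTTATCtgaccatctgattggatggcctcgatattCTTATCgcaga

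All 3 motifs were searched on both strands. In windows from 250 bases before the start codon to 50 bases from it, 4 of the 10 genes (MEP2, MEP3, PUT1 and PUT2) held a GATAAG core, against 14.7% of 6001 protein-coding genes. The Put3 spacing was in 1 member (PUT2) and 1.08% of all genes, and TGACTC or its reverse complement was in 1 member (GDH2) and 7.98% of all genes. In a window of 600 bases before the start codon, chosen after the shorter windows were seen, 9 of the 10 genes had a GATAAG core, against 26.8% of all genes, and 6 had 2 or more, against 4.92%. GDH2 was the gene with none in that window. Of the 10 genes, MEP2 had the most GATAAG cores there (7), followed by MEP3 (5). MEP3 and MEP1 (2 cores) did not pass the test of expression and MEP2 did. The Put3 spacing was found in the longer window of PUT1 (at -308 and -280), PUT2 (at -166) and GDH2 (at -382). The windows were not cut where a neighbouring gene begins. A match of letters is a description of the sequence, and binding was not measured.

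**Figure D1:**
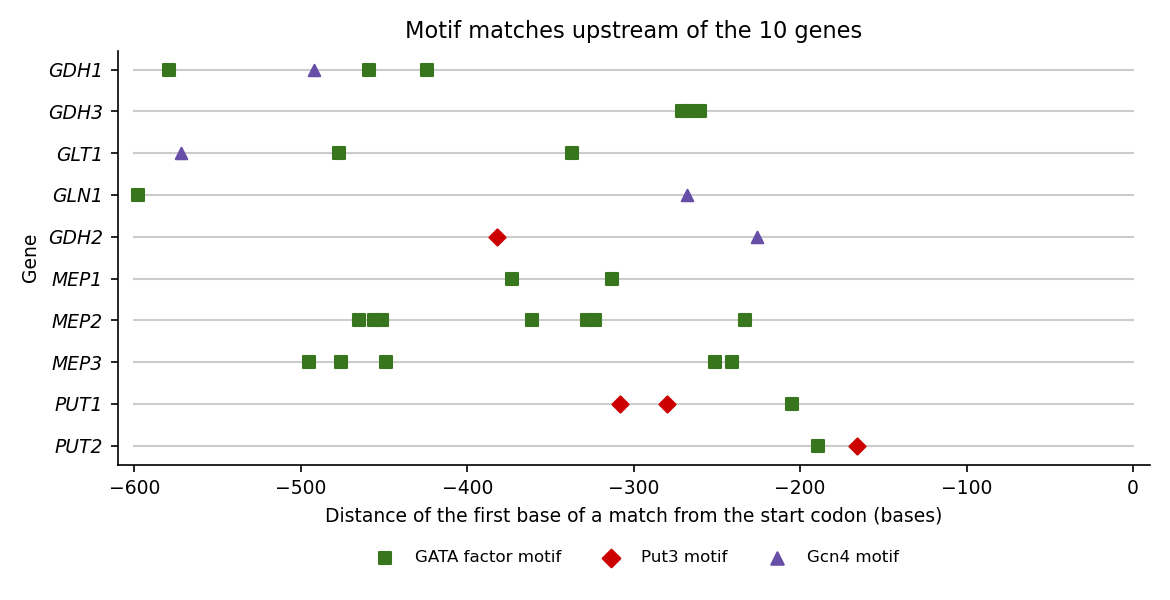
Matches to the GATA factor, Put3 and Gcn4 motifs in the 600 bases before the start codon of each gene, by distance of the first base of the match from the start codon in bases. MEP2 has 7 GATA factor matches and GDH2 has none, and the 2 Put3 matches of PUT1 lie close together.

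The wild-type libraries held 10860000 and 12586037 counts, against 36028173 and 24961576 for the deletion strain, so the deletion libraries were deeper. The lowest count of any of the 10 genes was 31 (PUT1, wild type 1), and the limit that a count of 0 allows (3 counts) was 0.327 CPM or less in every library, for counting error only. DBP2 was read first as a check of the labels with 7320 and 9662 counts in wild type, against 66 and 237 after deletion. Levels are averages over a culture, so a change in all cells and a larger change in some of them cannot be told apart. Scaling by library totals alone in place of TMM factors raised the median log2 fold change of all features by 0.45, so every fold change here is relative to the typical feature.

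GDH1 (chromosome XV, 1041678 to 1043042, minus strand) encodes the enzyme that makes most glutamate from ammonium in cells growing on glucose. Its level was 855 and 1019 CPM in wild type 1 and 2 and 388 and 463 CPM in deletion 2 and 3. Both deletion libraries were thus below both wild-type libraries. The mean was 937 ± 115 CPM in wild type and 425 ± 53.4 CPM in the deletion strain (SD, n = 2), and the log2 fold change was -1.14 (SE 0.19, adjusted p = 0.00178). The call held under all 11 alternatives. With abundance-dependent offsets the log2 fold change was -0.56 (adjusted p = 0.0469), and with library totals it was -0.69 (adjusted p = 0.0121).

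GDH3 (chromosome I, 31567 to 32940, plus strand) is a second NADP-dependent glutamate dehydrogenase, known for its use on carbon sources other than glucose. It had 13.5 and 17.6 CPM in wild type and 14.4 and 14.6 CPM in the deletion strain. The strains overlapped, and the log2 fold change of -0.10 (SE 0.25, adjusted p = 0.771) did not pass. Per coding kilobase, GDH3 made up 1.55% and 1.69% of the summed GDH1 and GDH3 level in the wild-type libraries, against 3.56% and 3.04% after deletion. As shares of counts the 95% Wilson intervals were 1.31% to 1.85%, 1.48% to 1.95%, 3.31% to 3.88% and 2.79% to 3.35%, so each deletion library lay above each wild-type library beyond counting error. The shares take no account of a scaling that varies with level. With abundance-dependent offsets the log2 fold changes of GDH1 and GDH3 were close, at -0.56 and -0.49 (adjusted p = 0.0469 and 0.173). The mean share was 1.62 ± 0.10% in wild type and 3.30 ± 0.37% in the deletion strain (SD, n = 2), with no test, since 2 libraries against 2 are too few for an exact one to pass. The summed level of both genes went from 698 ± 86.6 to 322 ± 39.2 CPM per coding kilobase.

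The coding sequences of GDH1 and GDH3 are alike, and reads that fit both could move counts between them. A global alignment gave 76.7% identity over 1365 aligned bases, and the longest stretch they share without a difference was 35 bases. Of all 25-base windows of GDH1, 0.82% also occurred in GDH3, and no 50-base window did. No source used here says what was done with reads matching both genes. The 90 bases around the longest shared stretch are shown as the place where the genes are hardest to tell apart, with capitals at the 8 differing bases (coding bases 462 to 551 of GDH1 and 465 to 554 of GDH3, RefSeq R64).
GDH1: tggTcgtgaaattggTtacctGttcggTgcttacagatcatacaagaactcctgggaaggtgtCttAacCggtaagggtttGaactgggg
GDH3: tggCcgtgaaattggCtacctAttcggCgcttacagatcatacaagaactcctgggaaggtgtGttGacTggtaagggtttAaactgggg

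GLN1 (chromosome XVI, 642208 to 643320, plus strand) joins ammonium to glutamate to make glutamine. It had 677 and 667 CPM in wild type and 440 and 432 CPM in the deletion strain, with no overlap. The means were 672 ± 7.43 and 436 ± 5.85 CPM (SD, n = 2), and the log2 fold change was -0.62 (SE 0.17, adjusted p = 0.0177). This call was the least stable of the 4: it did not pass when wild type 1, wild type 2, deletion 2 or deletion 3 was left out (adjusted p = 0.0519, 0.0731, 0.0758 and 0.0839), although the fold change stayed between -0.64 and -0.60. It was also lost under library totals (-0.18, adjusted p = 0.456) and with abundance-dependent offsets (-0.07, adjusted p = 0.774).

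GLT1 (chromosome IV, 149203 to 155640, minus strand), the glutamate synthase that turns glutamine and 2-oxoglutarate into glutamate, had 721 and 654 CPM in wild type and 820 and 723 CPM in the deletion strain. The deletion libraries were both higher, by little in the case of deletion 3. The log2 fold change of 0.17 (SE 0.18, adjusted p = 0.472) did not pass, but it did under library totals (0.61, adjusted p = 0.0132) and with abundance-dependent offsets (0.76, adjusted p = 0.00715). GLT1 is the longest of the 10 genes, and per coding kilobase it stood at 107 CPM in wild type, well under GLN1 and GDH1.

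GDH2 (chromosome IV, 70640 to 73918, minus strand), the NAD-dependent dehydrogenase that breaks glutamate down, had 102 and 104 CPM in wild type and 85.9 and 104 CPM in the deletion strain. The strains overlapped, and the log2 fold change of -0.12 (SE 0.19, adjusted p = 0.648) did not pass. Set against GDH1 per coding kilobase, the ratio of GDH2 to GDH1 was 0.0494 and 0.0427 in wild type, against 0.0922 and 0.0935 after deletion. The ratio of GDH1 to GLT1 was 5.60 and 7.35 in wild type, against 2.23 and 3.02 after deletion, and that of GLN1 to GLT1 was 5.44 and 5.90 against 3.10 and 3.46. In each of these 3 ratios the strains did not overlap. They do not depend on a scaling by 1 factor per library, but abundance-dependent offsets can change them. With those offsets the log2 fold changes were -0.56 for GDH1, 0.11 for GDH2, -0.07 for GLN1 and 0.76 for GLT1.

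**Figure D2:**
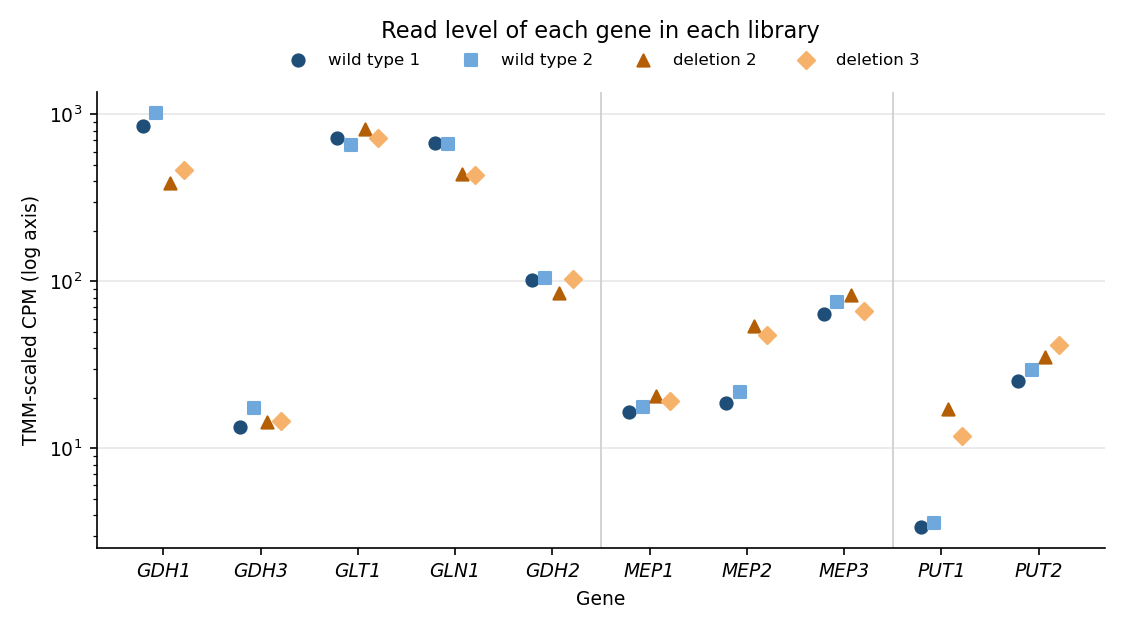
TMM-scaled CPM (log axis) of each gene in the 2 wild-type and 2 deletion libraries, 1 point per library, with glutamate genes at the left, ammonium permeases in the middle and proline genes at the right. GDH1 and GLN1 lie lower in both deletion libraries, MEP2 and PUT1 lie higher, and GDH2, GDH3 and MEP3 overlap between strains.

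The 3 ammonium permeases behaved unequally. MEP2 (chromosome XIV, 357453 to 358952, plus strand), the permease of highest affinity and the one that also signals for filamentous growth when ammonium is scarce, had 18.6 and 21.9 CPM in wild type and 54.0 and 47.7 CPM in the deletion strain. Both deletion libraries were far above wild type. The means were 20.3 ± 2.298 and 50.8 ± 4.40 CPM (SD, n = 2), and the log2 fold change was 1.33 (SE 0.21, adjusted p = 0.00144). It was called under all 11 alternatives, at 1.21 to 1.77.

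MEP1 (chromosome VII, 731449 to 732927, minus strand) had 16.6 and 17.8 CPM in wild type and 20.5 and 19.2 CPM in the deletion strain. The strains did not overlap, but the difference was small and did not pass (log2 fold change 0.21, SE 0.23, adjusted p = 0.487). MEP3 (chromosome XVI, 810984 to 812453, minus strand), the permease of highest capacity and lowest affinity, had 63.9 and 75.4 CPM in wild type and 83.0 and 66.6 CPM in the deletion strain. The strains overlapped, and the log2 fold change was 0.10 (SE 0.20, adjusted p = 0.710). Under library totals both passed, at 0.66 (MEP1, adjusted p = 0.0447) and 0.54 (MEP3, adjusted p = 0.0492).

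Per coding kilobase, MEP2 supplied 18.5% and 18.7% of the summed level of the 3 permeases in wild type, against 33.8% and 35.3% after deletion. The Wilson intervals of its count share were 16.4% to 21.5%, 16.95% to 21.3%, 33.1% to 35.4% and 34.3% to 37.3%, so the strains were separate beyond counting error. MEP3 remained the most abundant permease in every library, with a mean share of 65.3 ± 0.75% in wild type and 51.7 ± 2.01% in the deletion strain (SD, n = 2), and MEP1 held 16.1 ± 0.90% and 13.7 ± 0.95%. The summed permease level was 72.5 ± 7.64 CPM per coding kilobase in wild type and 98.2 ± 11.5 in the deletion strain. MEP1 and MEP3 share 70.6% of 1459 aligned coding bases, but their longest shared stretch is 20 bases, and MEP2 shares no more than 12 in a row with either.

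**Figure D3:**
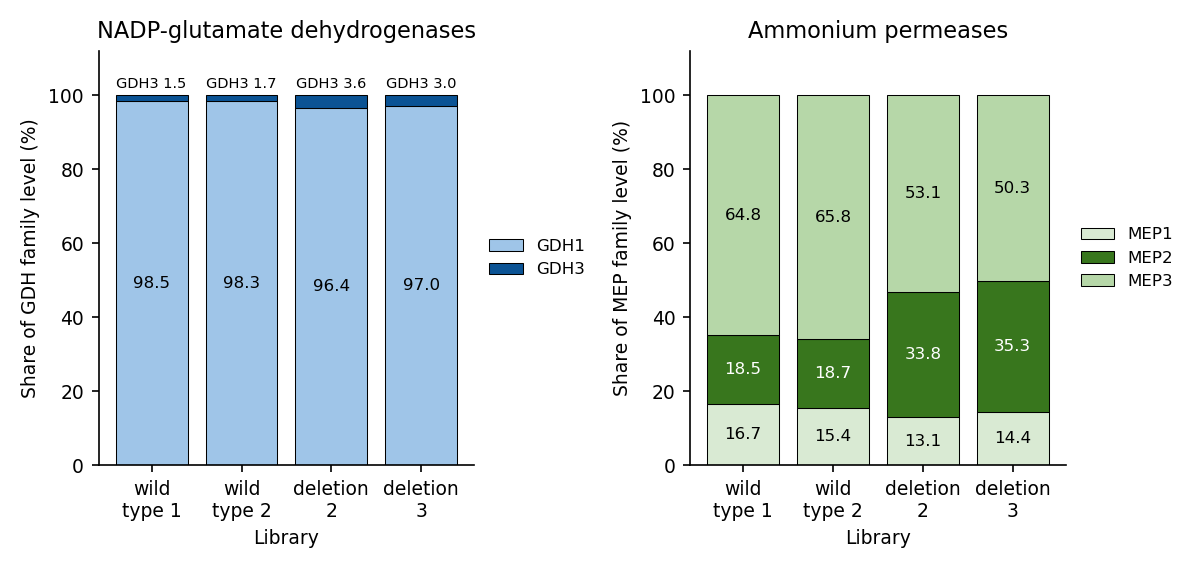
Share of each gene (%) in the summed level per coding kilobase of the NADP-dependent glutamate dehydrogenases GDH1 and GDH3 (left) and of the ammonium permeases MEP1, MEP2 and MEP3 (right), 1 bar per library. MEP2 takes 18.5% and 18.7% in wild type, against 33.8% and 35.3% after deletion, and GDH3 goes from under 2% to over 3%.

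PUT1 (chromosome XII, 425186 to 426616, plus strand) encodes the mitochondrial proline oxidase, the first step of proline breakdown. It was the least abundant of the 10 genes in wild type. Its counts were 31 and 39 in wild type, against 701 and 358 after deletion, or 3.38 and 3.57 CPM against 17.2 and 11.9 CPM. Both deletion libraries were well above wild type, and they also differed from each other more than the wild-type libraries did. The means were 3.48 ± 0.14 and 14.55 ± 3.76 CPM (SD, n = 2), with a log2 fold change of 2.06 (SE 0.32, adjusted p = 0.00124). The gene was called under all 11 alternatives, at 1.59 to 2.50.

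PUT2 (chromosome VIII, 181977 to 183704, plus strand) encodes the dehydrogenase that completes the conversion of proline to glutamate. It had 25.3 and 29.7 CPM in wild type and 35.1 and 41.6 CPM in the deletion strain. The strains did not overlap, but the log2 fold change of 0.48 (SE 0.22, adjusted p = 0.1002) did not pass, and it passed only under library totals (0.93, adjusted p = 0.00556). Per coding kilobase, PUT2 stood 6.20 and 6.88 times above PUT1 in the wild-type libraries, against 1.69 and 2.90 times after deletion.

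**Figure D4:**
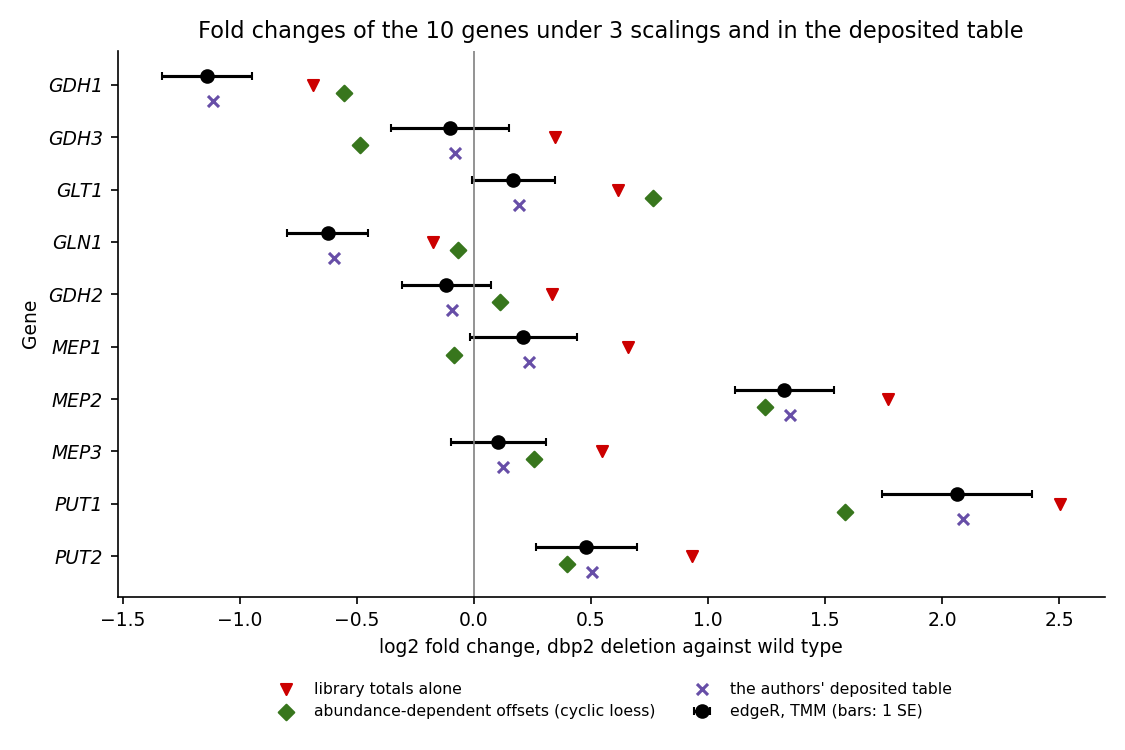
Log2 fold change of the deletion strain against wild type for each gene, from edgeR with TMM factors (black, bars 1 SE), with library totals, with abundance-dependent offsets, and in the authors' deposited table. GDH1 is below 0 and MEP2 and PUT1 are above 0 in all 4, while GLN1 moves from -0.62 to -0.18 and -0.07 and GLT1 from 0.17 to 0.61 and 0.76.

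By level per coding kilobase, the order in wild type was GDH1 (686 CPM), GLN1 (604), GLT1 (107), MEP3 (47.4), GDH2 (31.4), PUT2 (15.9), MEP2 (13.5), MEP1 (11.6), GDH3 (11.3) and PUT1 (2.43). MEP1 and GDH3 overlapped between libraries, and the other neighbours in this order did not. In the deletion strain GLN1 (392) came first, ahead of GDH1 (312), and MEP2 (33.9) stood above GDH2 (28.9). GDH3 (10.6) and PUT1 (10.2) overlapped there. Among 5595 protein-coding genes ranked by level per coding kilobase, MEP2 went from rank 3756 in wild type to 2427 in the deletion strain, PUT1 from 5171 to 4520, and GDH1 from 191 to 290.

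The authors' deposited table gave the same 4 calls among these genes. In the authors' deposited table the log2 fold change was 2.09 for PUT1 (adjusted p = 1.79e-07), 1.35 for MEP2 (1.21e-06), -1.12 for GDH1 (2.77e-05) and -0.60 for GLN1 (0.0204). The values of the other 6 in the authors' deposited table lay between -0.09 and 0.50 and did not pass.

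Around the 10 genes, 7 lists were drawn from textbook knowledge, but with earlier results of these data known. They held 85 other genes of nitrogen metabolism, which were read in the same fit. Of these, 25 were higher and 17 lower (29.4% and 20.0%), with a median log2 fold change of 0.205, against 21.2% higher, 20.7% lower and a median of 0.015 over all features. Without deletion 2 or without deletion 3, 15 and 16 were higher.

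Proline genes went in opposite directions. PUT4, the high-affinity proline permease, rose 10.5-fold, from 2.07 and 1.83 CPM to 18.2 and 22.7 CPM (log2 fold change 3.39, SE 0.32, adjusted p = 1.07e-04). PUT3, the activator of PUT1 and PUT2, fell from 88.2 and 123 CPM to 62.4 and 63.9 CPM (-0.74, SE 0.21, adjusted p = 0.0202), a call lost without wild type 2 (-0.44, adjusted p = 0.146), under library totals (-0.30, adjusted p = 0.291) and with abundance-dependent offsets (-0.56, adjusted p = 0.0549). The 3 enzymes that make proline from glutamate all fell: PRO1 to 35.2% of wild type (-1.51, adjusted p = 6.94e-04), PRO3 to 42.0% (-1.25, adjusted p = 9.43e-04) and PRO2 to 58.1% (-0.78, adjusted p = 0.0126). The call of PRO2 was lost without wild type 2 (-0.55, adjusted p = 0.0954). Thus 1 of 5 genes in this list was higher and 4 were lower, and 2 were lower without wild type 2, under library totals or with abundance-dependent offsets.

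Of 14 GATA factors and regulators of nitrogen catabolite repression, 3 were higher and none was lower, near the background of 21.2% higher. The count was 1 without deletion 2 and 8 under library totals. GAT1, a GATA activator, rose 4.23-fold, from 3.16 and 1.83 CPM to 12.6 and 8.30 CPM (log2 fold change 2.08, SE 0.39, adjusted p = 0.00303). For DAL80, a GATA repressor, 0 and 2 counts in wild type stood against 51 and 24 after deletion, a ratio of scaled counts of 10.6 with a 95% counting interval of 2.84 to 89.4. Its adjusted p was 0.0207. The gene no longer passed with wild type 1 left out (adjusted p = 0.108), with deletion 2 left out (0.0987), with abundance-dependent offsets (0.0562) or in DESeq2 (0.0654), while the fitted log2 fold change of 3.31 became 2.46 in the first case and 7.79 with wild type 2 left out. The activator GLN3 (0.42, adjusted p = 0.272), the repressor GZF3 (0.23, adjusted p = 0.346) and URE2, which holds Gln3 back (0.001, adjusted p = 0.9985), did not pass. The phosphatase gene SIT4 rose 1.92-fold, but not without wild type 2 (adjusted p = 0.0759) or deletion 2 (0.0660).

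Among 8 genes that regulate or accompany ammonium transport, 4 were higher and none lower, against 21.2% and 20.7% of all features. The count was 2 without deletion 3 and 1 with abundance-dependent offsets. NPR1, the kinase that keeps Mep2 active, rose 1.99-fold (adjusted p = 0.0157), a call lost without deletion 3 (0.137) and with abundance-dependent offsets (0.0897). NPR2, of the complex that restrains TORC1, rose 2.07-fold (adjusted p = 0.0119, and 0.0535 with abundance-dependent offsets). Of the same complex, NPR3 (0.15, adjusted p = 0.576) and IML1 (-0.008, adjusted p = 0.979) did not pass. ATO2, a presumed ammonium exporter, rose from 1 and 4 counts to 81 and 51 (log2 fold change 2.87, adjusted p = 0.00788, and 4.06 without wild type 2). ADY2, its acetate-linked relative, was the other gene higher (1.53, adjusted p = 0.0263), but not without wild type 2 (adjusted p = 0.134), deletion 2 (0.0846) or deletion 3 (0.0967). ATO3 went the other way, from 43.4 and 39.1 CPM to 31.1 and 27.8 CPM, and did not pass (-0.49, adjusted p = 0.0820). In wild type ATO2 had only 0.109 and 0.366 CPM and ADY2 1.31 and 0.733 CPM. PAR32, which inhibits Mep1 and Mep3, had a log2 fold change of -0.10 (adjusted p = 0.722).

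The supply of 2-oxoglutarate, the carbon skeleton of glutamate, had 6 of 16 genes lower and 2 higher, against 20.7% and 21.2% of all features. With any 1 of the 4 libraries left out, 1 gene was higher, and under library totals 5 were. YHM2, a mitochondrial citrate and 2-oxoglutarate carrier, fell to 27.9% of wild type (-1.84, adjusted p = 1.63e-04), and the peroxisomal citrate synthase CIT2 fell to 38.2% (-1.39, adjusted p = 8.19e-04). The isocitrate dehydrogenases split: IDP1, the mitochondrial NADP enzyme, fell (-1.19, adjusted p = 0.00485), IDP2, the cytosolic enzyme, rose (1.31, adjusted p = 0.0157), and IDH1 (-0.32) and IDH2 (0.18) did not pass. The other gene higher was KGD1, of the 2-oxoglutarate dehydrogenase complex (0.63, adjusted p = 0.0329). KGD1 did not pass with wild type 2 (log2 fold change 0.495) or deletion 2 (0.572) left out. Of the same complex, LPD1 was lower (-0.65, adjusted p = 0.0203) and KGD2 did not pass (0.26, adjusted p = 0.295). LPD1 did not pass with wild type 1 (-0.636), wild type 2 (-0.636) or deletion 2 (-0.556) left out. IDP2 did not pass with wild type 1 left out (adjusted p = 0.0632) or with deletion 3 left out (0.0995). In the list of glutamate use, 4 of 15 were higher and 4 lower, against 21.2% and 20.7% of all features. The higher count was 2 without deletion 2, and the lower count was 2 with abundance-dependent offsets. All 3 enzymes of the GABA shunt, by which glutamate returns to succinate, were higher: the glutamate decarboxylase GAD1 rose 5.40-fold (adjusted p = 2.39e-04), UGA2 rose by 1.72 (adjusted p = 0.00367) and UGA1 by 0.53 (adjusted p = 0.0479) on the log2 scale. UGA1 did not pass when any 1 of the 4 libraries was left out (adjusted p from 0.0573 to 0.178), and the log2 fold change of UGA2 was 1.10 without deletion 2. The remaining gene higher was DAL81, an activator of genes for GABA and allantoin use (1.17, adjusted p = 0.0253). It did not pass with wild type 2 (adjusted p = 0.0903) or deletion 2 (0.0811) left out, and its log2 fold change was 1.76 with wild type 1 left out. The transaminases BAT2 and AAT2 fell to 27.5% and 31.3% (adjusted p = 3.07e-04 and 5.01e-04). Also lower were ASN2 (-1.05, adjusted p = 0.00152) and ASN1 (-0.84, adjusted p = 0.00924), and ASN1 did not pass without wild type 2 (-0.596). The transaminases BAT1 (-0.25, adjusted p = 0.317), AAT1 (-0.34, adjusted p = 0.164) and ALT1 (0.10, adjusted p = 0.791) of the same list did not pass. Nor did UGA3 (0.23, adjusted p = 0.449) and UGA4 (0.60, adjusted p = 0.407).

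Of 17 other genes under nitrogen catabolite repression, 6 were higher and 3 lower, against 21.2% and 20.7% of all features, and the median log2 fold change was 0.59. The higher count was 3 without deletion 3 and 12 under library totals. DAL4, the allantoin permease, rose 5.82-fold (adjusted p = 0.00213), from only 11 and 7 counts to 229 and 149. Its log2 fold change of 2.54 became 3.03 without wild type 1 and 2.18 without wild type 2. DAL1 (1.13), DAL2 (1.26), DAL7 (0.60), DAL82 (1.23) and ECM38 (0.76) were also higher. Of these, DAL82 passed with any 1 library left out. DAL1 did not pass without wild type 2 (adjusted p = 0.134), deletion 2 (0.116) or deletion 3 (0.184), DAL2 without deletion 2 (0.0908), DAL7 without wild type 1 (0.139), deletion 2 (0.0602) or deletion 3 (0.163), and ECM38 without wild type 1 (0.0731) or deletion 3 (0.126). The general amino acid permease gene GAP1 (0.59, adjusted p = 0.0575) and the urea permease gene DUR3 (0.69, adjusted p = 0.0521) were just outside the threshold, and DAL5 was at 0.42 (adjusted p = 0.166). In the other direction, DUR1,2 was at -0.49 (adjusted p = 0.0642) and also did not pass. The arginase gene CAR1 fell to 29.9% (-1.74, adjusted p = 2.78e-04), CAR2 fell by 0.83 on the log2 scale (adjusted p = 0.0279, but 0.172 without wild type 1 and 0.0522 without deletion 2), and VBA1, a vacuolar transporter of basic amino acids, fell to 30.3% (adjusted p = 3.09e-04).

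Of 10 transcription factors and other regulators reported to act on the glutamate and glutamine genes, 5 were higher and none lower, against 21.2% and 20.7% of all features. The count was 3 without deletion 2, without deletion 3 or with abundance-dependent offsets, and 8 under library totals. HAP4, the regulatory subunit of the Hap complex, rose 4.33-fold (adjusted p = 7.47e-04). GCN4, the activator of amino acid synthesis, rose 2.67-fold (adjusted p = 0.00801), from 308 and 147 CPM to 706 and 505 CPM, and its log2 fold change went from 1.42 to 2.04 with wild type 1 left out. MKS1, which restrains the retrograde pathway, rose 1.79-fold (adjusted p = 0.0152), a call lost without deletion 2 (0.0929). The Hap subunit genes HAP2 (1.06, adjusted p = 0.0341) and HAP5 (0.89, adjusted p = 0.0316) were the others. HAP2 did not pass with wild type 1 (adjusted p = 0.0999) or deletion 3 (0.237) left out, and HAP5 with wild type 2 (0.0893), deletion 2 (0.184) or deletion 3 (0.0786) left out. The Hap subunit gene HAP3 did not pass (0.36, adjusted p = 0.305). LEU3 (0.27), RTG1 (0.52), RTG2 (-0.09) and RTG3 (0.08) did not pass either.

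**Figure D5:**
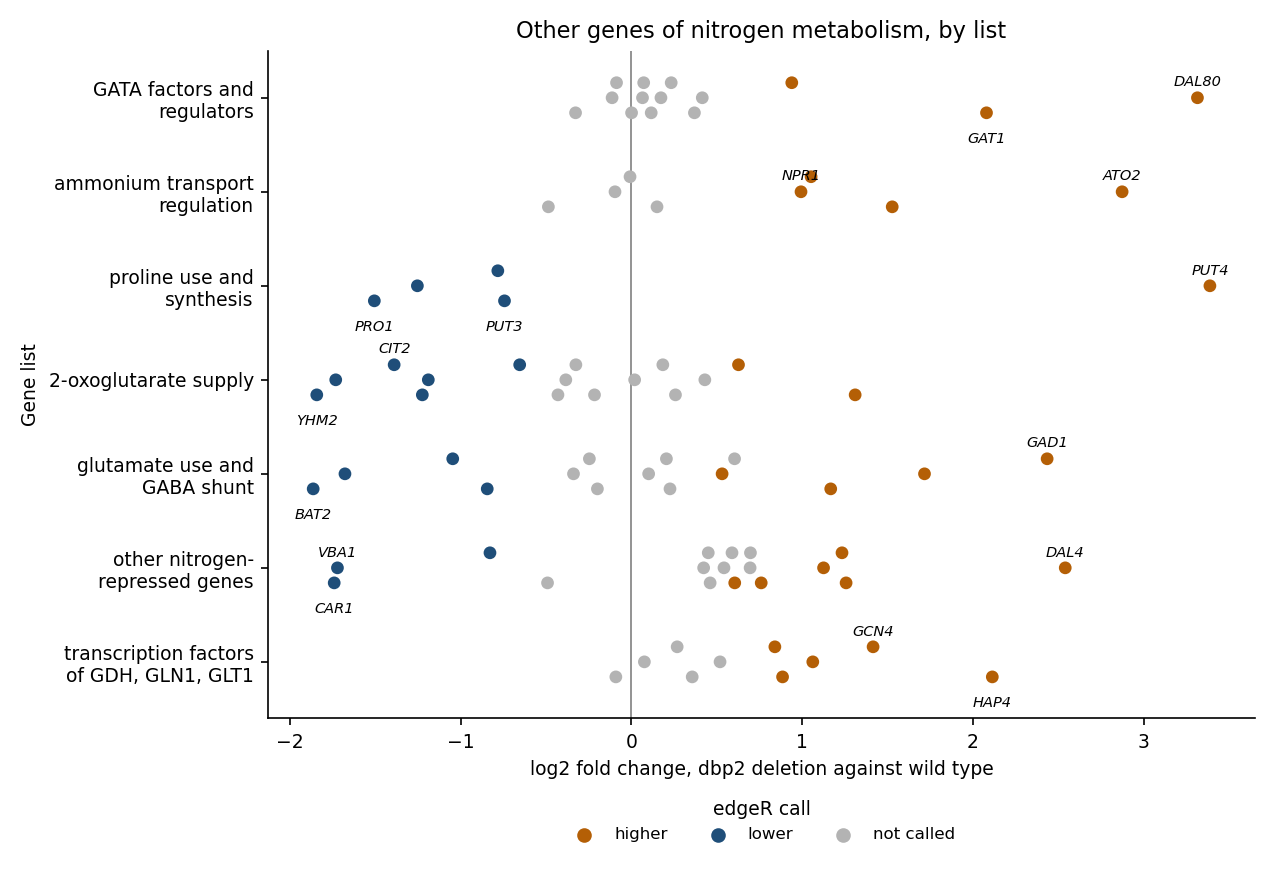
Log2 fold change of the deletion strain against wild type for the 85 other genes of nitrogen metabolism, 1 point per gene, by list (the points of a list are spread vertically for display) and coloured by the edgeR call. In the proline list PUT4 is at 3.39 and the other 4 genes are below 0, and calls in the first 2 lists and the last are all higher.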

How the data were processed

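The authors deposited raw counts, whole numbers for each feature's sense strand. They used genome R64 (sacCer3), according to the submitters' processing notes; the sources name no aligner or counter. Their deposited edgeR table gives a log2 fold change, a mean log2 CPM, a p-value and an adjusted p for 6456 features, per the file headers.

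Counts of 2 libraries per strain were compared with edgeR 4.0.16 in R 4.3.3: filterByExpr, TMM factors, glmQLFit and glmQLFTest, with Benjamini-Hochberg adjustment over 6124 features and a call at 0.05. The script was tested on simulated data. SE is the size of the log2 fold change divided by the square root of F, and CPM is TMM-scaled. Levels per coding kilobase use RefSeq R64 coding lengths. Alignments used Biopython 1.88, and Wilson intervals (95%) scipy 1.17.1. Alternatives used DESeq2 1.42.0 and limma 3.58.1 (cyclic loess).

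The 10 genes and the 7 lists were chosen with earlier results of these data known. Named from the lists are the 3 genes with the smallest p in each, and PUT3, PUT4, GLN3, GAT1, DAL80, GZF3 and URE2, except 1 gene that is not reported here. Other list genes that the text names were chosen after their values were seen. The list name LAP4 was matched to APE1 and DUR1,2 to the RefSeq name DUR12.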

Additional observations from a re-analysis of the deposited data

How the results depend on the processing

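The higher calls of PUT1 and MEP2 and the lower call of GDH1 held in all 11 alternatives. With library totals alone, 6 of the 10 genes were higher, 1 was lower and 3 were not called, and 45 of the 85 list genes were higher. The same scaling called 2502 of all 6124 features higher and 583 lower, against 1301 and 1268 with TMM factors. With abundance-dependent offsets 1 of the 10 was lower. Leaving out 1 library gave 1 to 1 lower, and 15 to 20 higher list genes. The cause was not tested.

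Genes without a call changed sign. GDH2 was 0.34 with library totals, 0.11 with abundance-dependent offsets, and -0.262 to 0.015 without 1 library. GDH3 was 0.34 with library totals and -0.28 to 0.14 without 1 library. MEP1 was -0.087 with abundance-dependent offsets, MEP3 -0.065 to 0.268 without 1 library, and GLN3 -0.032 with abundance-dependent offsets. URE2 was -0.009 with DESeq2-type size factors, -0.006 in DESeq2, -0.027 with abundance-dependent offsets and -0.171 to 0.155 without 1 library.

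With no division by coding length the mean MEP2 share in wild type was 18.9%, and the other shares moved by less than their SD. In the 600-base window 9 genes held the GATA core, 3 the Put3 spacing and 4 the Gcn4 core. No paired analysis was made, because the library numbers give no clear pairing. The columns number the wild-type libraries 1 and 2 and the deletion libraries 2 and 3, although the labels number the deletion replicates 1 and 2. Among the 10 genes depth limits PUT1 most, with the lowest wild-type counts (31 and 39).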

Other observations

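The genes next to the 10 on the chromosome were also read, as a comparison added after the data were seen. Of 20 neighbours, 16 were tested, and 3 were higher, 1 lower and 12 not called. Over all features, 21.2% were higher and 20.7% lower, 41.9% in all, so calls were not more common among the neighbours. ALD4, downstream of GDH1 and on the other strand, encodes the mitochondrial aldehyde dehydrogenase and rose by 1.86 on the log2 scale (adjusted p = 5.36e-04) while GDH1 fell. BDH2, a presumed butanediol dehydrogenase gene that lies 507 bases downstream of GDH3 on the same strand, rose by 1.75 (adjusted p = 9.97e-04) while GDH3 did not pass. VMA13, of the vacuolar proton pump, rose by 0.56 (adjusted p = 0.0311) downstream of GLN1, and ARP7, of chromatin remodelling complexes, fell by 0.56 (adjusted p = 0.0371) upstream of it. The tested neighbours of MEP2 (AAH1 0.57 and YNL143C 0.85) and of PUT1 (RRN5 -0.05) did not pass. These neighbours were read in the TMM fit alone.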
